A study of Mus musculus with 16 samples.

Results

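The C/EBP transcription factors and Cebpz were followed here in myeloid-derived suppressor cells (MDSCs), the immature monocytic and granulocytic cells that accumulate in tumor-bearing hosts. The members were chosen by gene symbol and are Cebpa, Cebpb, Cebpd, Cebpe, Cebpg and Cebpz, 6 of the 24421 symbols in the count files. Monocytic (M-MDSC) and granulocytic (G-MDSC) cells had been sorted from spleens, of which 4 came from WT and 4 from Nlrp3-/- mice on the C57BL/6 background, all bearing B16.F10 melanoma, and each of the 16 libraries holds the RNA of 1 mouse. The sort took CD11b-high Ly6C+Ly6G- cells as M-MDSCs and CD11b-high Ly6C-Ly6G+ cells as G-MDSCs, and both subsets of a mouse were sequenced. The Nlrp3-/- mice carry an EGFP cassette with a viral poly(A) signal joined to the start codon of Nlrp3 in every tissue, so the sorted cells and their hosts both lacked the gene, and no mice without a tumor are among these libraries. Mice of the study were between 6 and 12 weeks old and matched for sex and age.

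C/EBP proteins are basic leucine zipper factors that bind DNA as dimers. In the myeloid lineage C/EBPα is needed to form granulocyte and monocyte progenitors, C/EBPβ acts in emergency granulopoiesis and in MDSCs, C/EBPδ is induced in inflammation, and C/EBPε directs late granulocyte maturation and the secondary granule genes. C/EBPγ lacks an activation domain and works as a dimer partner. The protein of Cebpz is not a leucine zipper factor in spite of its symbol. It is a CCAAT-binding factor of the nucleolus, related to a yeast protein of large ribosomal subunit assembly, and the name C/EBP zeta has also been used for the stress-induced factor CHOP, the product of Ddit3, which is therefore shown beside it.

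The library totals lay between 2295967 and 6079866 counts, and levels are given as CPM, the usual depth-scaled count, adjusted by TMM factors over the 16 libraries. A count of 3 was worth 0.349 to 1.17 CPM, and these limits cover counting error only. In the WT libraries Nlrp3 had 219 to 632 counts in the monocytic subset and 744 to 1365 in the granulocytic one, and in the Nlrp3-/- libraries these were 4 to 11 and 21 to 59. The summed level of 7 M-MDSC markers was 5633 to 9601 CPM in M-MDSCs and 633 to 1223 CPM in G-MDSCs. The summed level of the 8 G-MDSC markers matched by symbol was 111109 to 170654 CPM in G-MDSCs and 1142 to 7484 CPM in M-MDSCs, the last value being that of WT M-MDSC replicate 2, whereas the other M-MDSC libraries reached at most 2105 CPM. A gene was called when the edgeR quasi-likelihood test gave a Benjamini-Hochberg adjusted p (FDR) under 0.05 and the groups differed by more than 1.5-fold, up or down.

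The genes lie on 5 chromosomes of mm10. Cebpa (7:35119293-35121928, plus strand), Cebpb (2:167688915-167690418, plus strand) and Cebpd (16:15887286-15891031, plus strand) each have 1 exon. Cebpe (14:54710360-54712174, minus strand) has 2 exons, Cebpg (7:35046422-35056573, minus strand) has 2, and Cebpz (17:78919006-78937066, minus strand) has 16. The transcripts of Cebpg and Cebpz were the poorest in G and C, at 43.3% and 43.4%, those of Cebpa, Cebpb and Cebpe were at 62.6%, 67.2% and 61.5%, and that of Cebpd was at 51.6%. Cebpb, Cebpd and Cebpz overlap Tmem189, Spidr and Cebpzos on the opposite strand, and the reads were counted by strand.

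Cebpa and Cebpg are each other's nearest coding gene on 1 side, 62719 bases apart and read away from each other, and Cebpz and Ndufaf7, which encodes an assembly factor of mitochondrial complex I, are read away from each other from starts 69 bases apart. The sequences before these starts are shown because only 1 gene of each pair was called in a comparison described further on, Cebpa between the subsets and Cebpz between the genotypes. They were taken from the RefSeq promoters of GRCm38.p6, cut to the bases before the start of Cebpa and Cebpg. Of the 69 bases between Cebpz and Ndufaf7 in GENCODE, the 35 that lie outside both genes in RefSeq too are shown, and the searches below did not cover the rest. The sequences are written 5′ to 3′ on the strand of the gene, or on the plus strand for the bases between Cebpz and Ndufaf7. Capitals mark CCAAT on either strand. TTGCNNAA, a form of the C/EBP site, was also searched on both strands, and the motifs do not overlap in these windows.
Cebpa, chr7:35119043-35119292: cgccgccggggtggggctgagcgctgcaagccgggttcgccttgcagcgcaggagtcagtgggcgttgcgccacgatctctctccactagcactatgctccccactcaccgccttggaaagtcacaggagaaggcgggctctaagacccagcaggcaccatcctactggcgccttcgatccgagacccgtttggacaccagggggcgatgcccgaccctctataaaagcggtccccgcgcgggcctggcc
Cebpg, chr7:35056574-35056816: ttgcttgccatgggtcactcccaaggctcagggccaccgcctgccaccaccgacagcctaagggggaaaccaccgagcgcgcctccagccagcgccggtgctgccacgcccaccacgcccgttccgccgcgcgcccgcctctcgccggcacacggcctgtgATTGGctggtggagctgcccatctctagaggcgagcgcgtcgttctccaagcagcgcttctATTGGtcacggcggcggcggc
Cebpz to Ndufaf7, chr17:78937071-78937105: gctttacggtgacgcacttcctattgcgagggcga
The Cebpg window holds CCAAT at 2 places, both as ATTGG, and the other windows hold none, whereas 33.2% of all 32851 promoters hold CCAAT in a window of 243 bases, 33.8% in 250 bases and 5.65% in 35 bases. TTGCNNAA is in none of the 3 windows, against 9.56% of promoters in 250 bases, 9.26% in 243 bases and 0.81% in 35 bases. A match in letters is a description of the window alone.

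To ask how the C/EBP factors differ between the 2 MDSC subsets, G-MDSCs were compared with M-MDSCs within each genotype. In WT mice, Cebpa was lower and Cebpb, Cebpd and Cebpe were higher in G-MDSCs, while Cebpg and Cebpz were not called. The same 4 members were called in the same directions in Nlrp3-/- mice. These 4 of 6 members stand against a background of 53.3% of all 9739 tested genes called in WT mice and 51% of 10071 in Nlrp3-/- mice, so that the share of members called is near that of all genes. Groups did not overlap for 5 of 6 members in either genotype, with Cebpz as the fifth, against 51.9% and 50.2% of tested genes.

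Cebpa, the progenitor factor, was measured at 86.2, 44.3, 55.8 and 86.3 CPM in WT M-MDSC replicates 1 to 4 and at 19.7, 4.74, 16.2 and 11.7 CPM in WT G-MDSCs. In Nlrp3-/- mice it was at 105, 78.6, 93.6 and 103 CPM in M-MDSCs and at 40.2, 32.1, 16.8 and 17.6 CPM in G-MDSCs. All M-MDSC libraries were above all G-MDSC libraries of either genotype. Cebpa was thus 5.14-fold lower in G-MDSCs of WT mice (log2 fold −2.36, SE 0.36, adjusted p = 0.000153) and 3.86-fold lower in those of Nlrp3-/- mice (−1.95, SE 0.27, adjusted p = 3.83e-05).

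Cebpb, the emergency granulopoiesis factor, was at 165, 183, 156 and 152 CPM in WT M-MDSCs and at 273, 516, 535 and 379 CPM in WT G-MDSCs. The Nlrp3-/- libraries held 160, 108, 129 and 112 CPM in M-MDSCs and 422, 287, 199 and 237 CPM in G-MDSCs. The subsets did not overlap in either genotype, and the G-MDSC libraries were the more variable. Its level was 2.6-fold higher in WT G-MDSCs (log2 fold 1.38, SE 0.21, adjusted p = 0.00014) and 2.08-fold higher in Nlrp3-/- G-MDSCs (1.06, SE 0.23, adjusted p = 0.00162). With library size only, which moved the median of all genes to −0.79 in WT and −0.83 in Nlrp3-/- mice, the log2 fold of Cebpb was 0.63 (adjusted p = 0.0162) and 0.34 (adjusted p = 0.231), so that the call was lost in Nlrp3-/- mice.

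Cebpd, the inflammation-induced member, was at 50.5, 57.2, 61 and 56.2 CPM in WT M-MDSCs and at 288, 394, 620 and 451 CPM in WT G-MDSCs. In Nlrp3-/- mice the M-MDSC libraries held 91.6, 44.2, 58.7 and 60.3 CPM and the G-MDSC libraries 667, 612, 516 and 504 CPM. No G-MDSC library came near the M-MDSC range. Cebpd was 7.79-fold higher in WT G-MDSCs (log2 fold 2.96, SE 0.22, adjusted p = 5.64e-07) and 8.28-fold higher in Nlrp3-/- G-MDSCs (3.05, SE 0.23, adjusted p = 8.6e-08).

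Cebpe, the factor of late granulocytes, was the least counted member, with 11 to 244 counts per library. In WT mice it was at 5.57, 5.77, 3.21 and 3.77 CPM in M-MDSCs and at 40.7, 82.6, 15.5 and 30.4 CPM in G-MDSCs. The Nlrp3-/- libraries held 3.49, 4.27, 3.55 and 3.98 CPM in M-MDSCs and 35.8, 15.3, 26.1 and 18.1 CPM in G-MDSCs. The lowest G-MDSC library was above the highest M-MDSC library in both genotypes. Cebpe was 9.03-fold higher in WT G-MDSCs (log2 fold 3.17, SE 0.46, adjusted p = 0.000106) and 5.75-fold higher in Nlrp3-/- G-MDSCs (2.52, SE 0.33, adjusted p = 2.14e-05). Without WT M-MDSC replicate 2, the library with the most G-MDSC marker RNA, the log2 fold in WT mice was −2.59 for Cebpa, 1.38 for Cebpb, 2.92 for Cebpd and 3.25 for Cebpe, and all 4 calls held.

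Cebpg, the dimer partner, was at 44.8, 52.2, 48.3 and 46.3 CPM in WT M-MDSCs and at 38.4, 45.7, 85.5 and 72.8 CPM in WT G-MDSCs. In Nlrp3-/- mice it was at 48.4, 24.7, 15.9 and 24.9 CPM in M-MDSCs and at 50.8, 36.3, 30.9 and 33.3 CPM in G-MDSCs. The subsets overlapped in both genotypes, and the log2 folds of 0.34 (SE 0.24, adjusted p = 0.235) and 0.28 (SE 0.31, adjusted p = 0.48) were not called. Without Nlrp3-/- M-MDSC replicate 1, the highest library of its group, the log2 fold in Nlrp3-/- mice was 0.68 (adjusted p = 0.0418), which passed both thresholds.

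Cebpz was at 208, 231, 230 and 218 CPM in WT M-MDSCs and at 249, 338, 408 and 304 CPM in WT G-MDSCs, without overlap. In Nlrp3-/- mice the levels were 90.2, 106, 102 and 87.9 CPM in M-MDSCs and 118, 128, 121 and 198 CPM in G-MDSCs, again without overlap. The log2 fold between subsets was 0.55 in WT mice (SE 0.17, adjusted p = 0.0132), below the fold threshold, which it passed without WT G-MDSC replicate 1 (0.67, adjusted p = 0.00375) or 4 (0.59, adjusted p = 0.0207), and 0.43 in Nlrp3-/- mice (SE 0.18, adjusted p = 0.0567). With the mouse as a block the second adjusted p was 0.0419, still below 1.5-fold. The direction rests on the scaling, since with library size only the log2 folds were −0.19 and −0.30 for Cebpz and −0.39 and −0.45 for Cebpg.

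Ddit3, which encodes the dimer partner CHOP, was 5.59-fold higher in G-MDSCs of WT mice (58 ± 9.25 CPM in M-MDSCs and 323 ± 98.7 CPM in G-MDSCs, mean ± SD, n = 4 each; log2 fold 2.48, SE 0.23, adjusted p = 2.88e-06). In Nlrp3-/- mice it was 5.46-fold higher (log2 fold 2.45, SE 0.27, adjusted p = 3.58e-06). The levels by library show Cebpa standing opposite to Cebpb, Cebpd and Cebpe across the subsets.

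**Figure D1:**
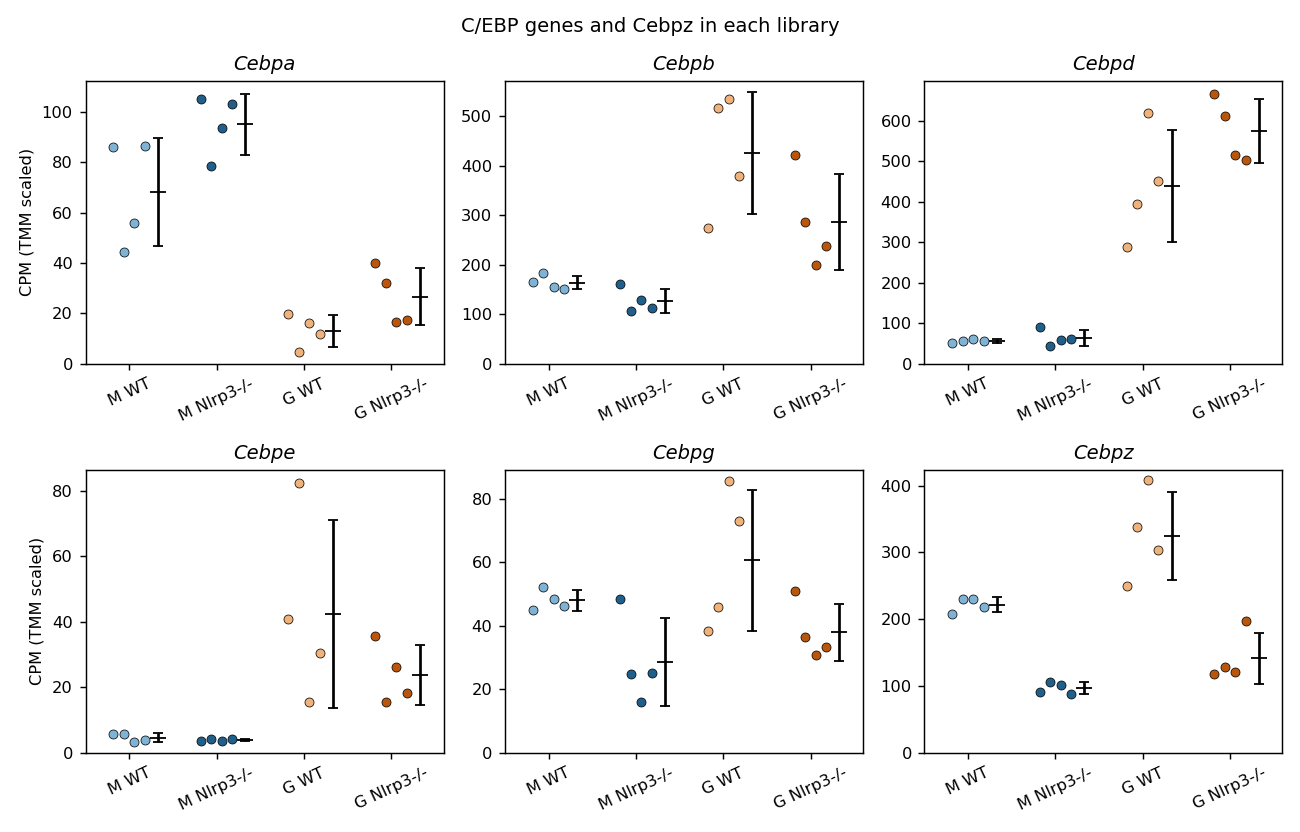
CPM scaled by TMM of the 6 members (vertical axes, each from 0) in the 4 groups (horizontal axes), 1 point per library in the order of replicates 1 to 4, with the mean and SD of each group as a bar. Cebpa is higher in all M-MDSC libraries, Cebpb, Cebpd and Cebpe are higher in all G-MDSC libraries, and Cebpz is lower in all Nlrp3-/- libraries of a subset than in the WT libraries of that subset.

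The order of the 4 groups differed between members. For Cebpd it ran from WT M-MDSCs (56.2 ± 4.33 CPM, SD, n = 4) and Nlrp3-/- M-MDSCs (63.7 ± 19.9 CPM) to WT G-MDSCs (438 ± 139 CPM) and Nlrp3-/- G-MDSCs (575 ± 78.3 CPM), and the neighbours of the same subset did not differ beyond their spread. For Cebpz it ran from Nlrp3-/- M-MDSCs (96.5 ± 8.90 CPM) through Nlrp3-/- G-MDSCs (141 ± 38 CPM) and WT M-MDSCs (222 ± 11.0 CPM) to WT G-MDSCs (325 ± 66.3 CPM). The means of Cebpg had the same order (28.5, 37.8, 47.9 and 60.6 CPM), with overlapping libraries, while Cebpa, Cebpb, Cebpd and Cebpe were ordered by subset first. For Cebpa the order was WT G-MDSCs (13.1 ± 6.46 CPM), Nlrp3-/- G-MDSCs (26.7 ± 11.4 CPM), WT M-MDSCs (68.2 ± 21.4 CPM) and Nlrp3-/- M-MDSCs (95.1 ± 12.1 CPM).

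To ask whether the loss of Nlrp3 changed these factors, Nlrp3-/- and WT cells of a subset were compared. Cebpz fell in both subsets and was the only member called in either. In M-MDSCs 1 of 6 members was called, against 10.6% of 9986 tested genes, and 1 of 6 had groups without overlap, against 19.3%. In G-MDSCs 1 of 6 was called, against 16.4% of 9273 tested genes, and 1 of 6 had groups without overlap, against 24.4%.

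Cebpz was 2.26-fold lower in Nlrp3-/- M-MDSCs (log2 fold −1.18, SE 0.14, adjusted p = 0.00128), with a mean of 96.5 CPM against 222 CPM. It was 2.45-fold lower in Nlrp3-/- G-MDSCs (log2 fold −1.29, SE 0.20, adjusted p = 0.000751), with a mean of 141 CPM against 325 CPM. Every Nlrp3-/- library was below every WT library of its subset, and the highest, G-MDSC replicate 4 at 198 CPM, lay apart from the other 3 of its group at 118 to 128 CPM. By its p, Cebpz ranked 14 among the 9986 genes tested in M-MDSCs and 212 among the 9273 tested in G-MDSCs. Because the sorted cells are bulk samples, less Cebpz RNA per cell and fewer cells with it cannot be told apart.

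**Figure D2:**
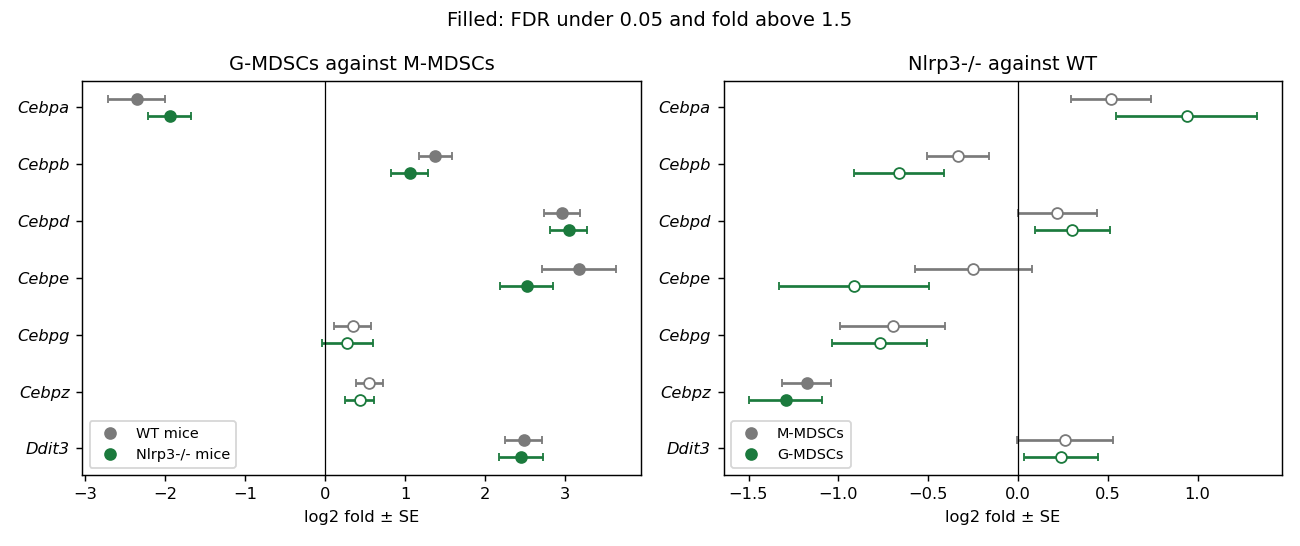
Log2 fold with its standard error (horizontal axes) for the 6 members and Ddit3 (vertical axes), G-MDSCs against M-MDSCs on the left and Nlrp3-/- against WT on the right, with filled points where FDR was under 0.05 and the fold above 1.5. On the right only Cebpz is filled, at −1.18 in M-MDSCs and −1.29 in G-MDSCs, and on the left Cebpg and Cebpz are open in both genotypes.

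Several other properties of the libraries moved with genotype as Cebpz did. As a measure of base composition, the median deviation of the 2658 genes richest in G and C minus that of the 2658 poorest was taken in each library on the log2 scale. In M-MDSCs it was −0.40 to −0.07 for WT and 0.05 to 0.52 for Nlrp3-/- libraries. In G-MDSCs it was −0.40 to −0.14 for WT and 0.20 to 0.37 for Nlrp3-/- libraries, so the genotypes did not overlap. With GC content and length as offsets, Cebpz remained called in both subsets, at −0.90 in M-MDSCs (adjusted p = 0.00915) and −0.92 in G-MDSCs (adjusted p = 0.012). The replicate block pairs WT and Nlrp3-/- libraries by replicate number only, as they come from different mice. Together with these offsets it gave an adjusted p of 0.0582 in M-MDSCs, where the call was lost, and 0.0408 in G-MDSCs.

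**Figure D3:**
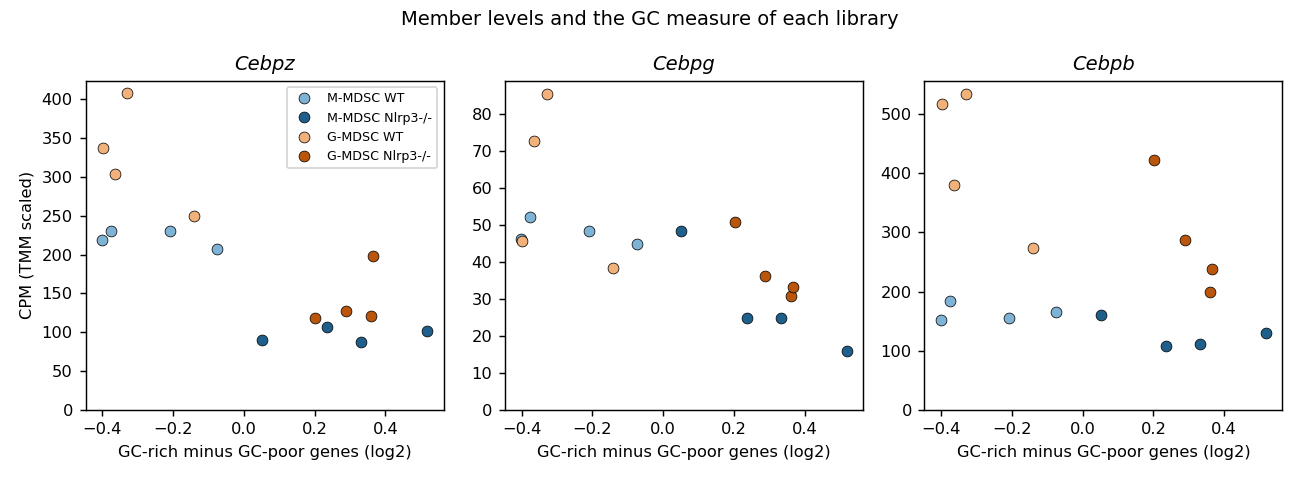
CPM scaled by TMM of Cebpz, Cebpg and Cebpb (vertical axes, each from 0) against the median log2 deviation of GC-rich genes minus that of GC-poor genes (horizontal axes), 1 point per library and 1 color per group. The WT libraries lie at −0.40 to −0.07 and the Nlrp3-/- libraries at 0.05 to 0.52, and the Cebpz levels separate along with them within each subset.

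Marker sums of some other cell types also differed between genotypes. In bulk samples RNA of other cells and expression of these markers by the sorted cells cannot be told apart. The 7 red pulp macrophage markers summed in M-MDSCs to 75.3 to 83.7 CPM (WT) and 159 to 288 CPM (Nlrp3-/-), and in G-MDSCs to 95.2 to 245 CPM (WT) and 397 to 560 CPM (Nlrp3-/-). The 5 NK cell markers summed in M-MDSCs to 35.1 to 70.9 CPM (WT) and 90.2 to 136 CPM (Nlrp3-/-), and in G-MDSCs to 21 to 47.9 CPM (WT) and 53.8 to 92.1 CPM (Nlrp3-/-). The largest part of this sum was Gzma, with WT and Nlrp3-/- means of 34.1 and 79.5 CPM in M-MDSCs and 20 and 52 CPM in G-MDSCs. The means of Ncr1, Klrb1c and Klrd1 were also higher in Nlrp3-/- cells of both subsets, and that of Eomes was lower. The 8 dendritic cell markers, nearly all of whose sum came from H2-Aa and H2-Ab1, were at 597 to 881 CPM in WT and 871 to 1483 CPM in Nlrp3-/- M-MDSCs, and at 344 to 676 CPM in WT and 851 to 1466 CPM in Nlrp3-/- G-MDSCs, with Xcr1 at 0 in every Nlrp3-/- G-MDSC library; the genotypes overlapped in M-MDSCs and not in G-MDSCs. None of the macrophage or NK cell markers was at 0 throughout a group. The sums of the immature neutrophil, B cell, T cell, plasma cell, erythroid, platelet, eosinophil and basophil markers overlapped between the genotypes in both subsets, and 4 of the 7 erythroid markers were at 0 in every library. The M-MDSC markers did not overlap between the genotypes in G-MDSCs, at 633 to 943 CPM in WT and 1017 to 1223 CPM in Nlrp3-/- libraries. The part of RNA from other cells in the Cebpz difference was not tested.

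The neighbours of Cebpz on chromosome 17 were compared because they share its surroundings. Ndufaf7 was at 26.8 ± 6.58 CPM in WT and 29.5 ± 7.85 CPM in Nlrp3-/- M-MDSCs (SD, n = 4 each; log2 fold 0.17, SE 0.25, adjusted p = 0.695), and at 16.1 ± 8.07 and 13.3 ± 4.63 CPM in G-MDSCs (−0.37, SE 0.40, adjusted p = 0.555). Cebpzos, on the opposite strand at the other end of Cebpz, had 3 to 49 counts per library, and its log2 folds were −0.28 in M-MDSCs (SE 0.41, adjusted p = 0.688) and −0.91 in G-MDSCs (SE 0.61, adjusted p = 0.327). Neither neighbour was called, and the difference between Cebpz and its neighbours was not itself tested. Sult6b1, the nearest coding gene on the other side, held 4 counts over the 16 libraries and was not tested.

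**Figure D4:**
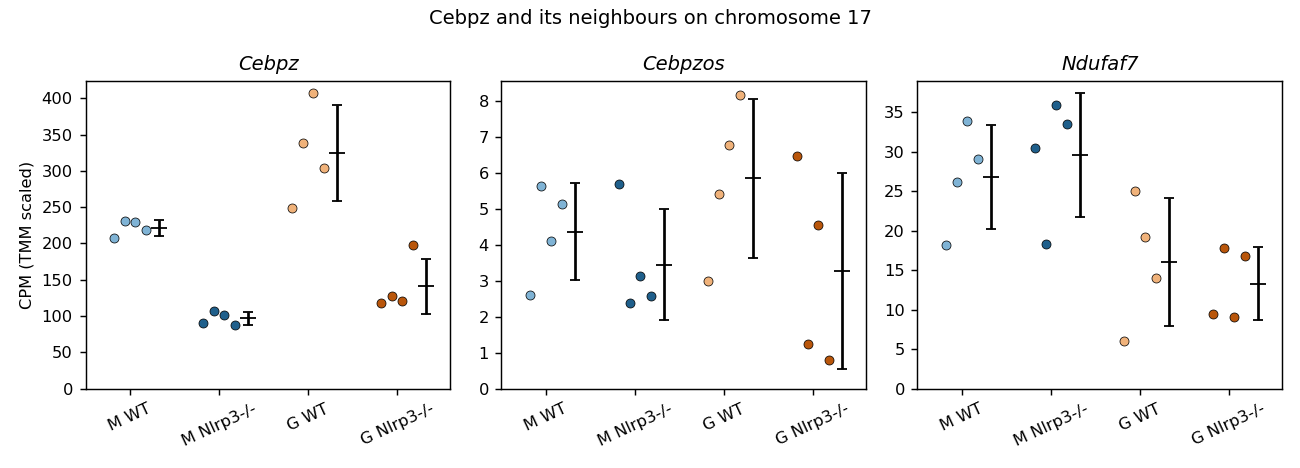
CPM scaled by TMM of Cebpz, Cebpzos and Ndufaf7 (vertical axes, each from 0) in the 4 groups (horizontal axes), 1 point per library, with the mean and SD of each group as a bar. The Cebpz groups of the 2 genotypes are apart within each subset, whereas those of Cebpzos and Ndufaf7 overlap.

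Among the other members, Cebpa had a log2 fold of 0.52 in Nlrp3-/- M-MDSCs (SE 0.22, adjusted p = 0.143) and 0.94 in Nlrp3-/- G-MDSCs (SE 0.39, adjusted p = 0.113). The genotypes overlapped in both subsets, since WT M-MDSC replicates 1 and 4 and WT G-MDSC replicate 1 lay within the range of the Nlrp3-/- libraries. With GC content and length as offsets the log2 folds were 0.18 and 0.60. In the model of all 16 libraries the value in G-MDSCs was 1.01 with an adjusted p of 0.0451.

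For Cebpg the log2 folds were −0.70 in M-MDSCs (SE 0.29, adjusted p = 0.135) and −0.77 in G-MDSCs (SE 0.26, adjusted p = 0.0573). Nlrp3-/- M-MDSC replicate 1, at 48.4 CPM, lay within the WT range, while the other 3 libraries at 15.9 to 24.9 CPM were below it. Without that library the log2 fold in M-MDSCs was −1.14 (adjusted p = 0.00449), which passed both thresholds. In G-MDSCs Cebpg passed them without WT replicate 1 (−0.94, adjusted p = 0.0189) and without Nlrp3-/- replicate 1 (−0.94, adjusted p = 0.0373), and also with DESeq2, the edgeR exact test, no filter or at least 10 counts in every library (adjusted p = 0.0391, 0.0373, 0.0247 and 0.0487). With GC content and length as offsets its log2 folds were −0.43 (adjusted p = 0.302) and −0.35 (adjusted p = 0.388).

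Cebpb had a log2 fold of −0.33 in M-MDSCs (SE 0.17, adjusted p = 0.216) and −0.66 in G-MDSCs (SE 0.25, adjusted p = 0.0828). Nlrp3-/- replicate 1 was again the highest of its group in both subsets. In G-MDSCs the call was gained without WT replicate 1 (−0.83, adjusted p = 0.026) and without Nlrp3-/- replicate 1 (−0.90, adjusted p = 0.0239). With GC content and length as offsets Cebpb was called lower in both, at −0.71 (adjusted p = 0.0338) and −1.11 (adjusted p = 0.0123), and with the replicate block added it was not (adjusted p = 0.105 and 0.0664).

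Cebpe had log2 folds of −0.25 in M-MDSCs (SE 0.33, adjusted p = 0.651) and −0.91 in G-MDSCs (SE 0.42, adjusted p = 0.146), where the WT libraries ranged from 15.5 to 82.6 CPM. It was called lower in G-MDSCs without WT replicate 3 (−1.17, adjusted p = 0.0381) and with GC content and length as offsets (−1.37, adjusted p = 0.0483). Cebpd had log2 folds of 0.22 in M-MDSCs (SE 0.22, adjusted p = 0.537) and 0.30 in G-MDSCs (SE 0.21, adjusted p = 0.344). Without Nlrp3-/- M-MDSC replicate 1 the first was −0.07. Ddit3 had log2 folds of 0.26 (SE 0.27, adjusted p = 0.546) and 0.24 (SE 0.21, adjusted p = 0.449).

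The genotype effect was compared between subsets by the interaction of genotype and subset. No member was called in the edgeR or DESeq2 test, nor did any have in edgeR an unadjusted p under 0.05, and 0.028% of 10696 genes were called. For Cebpz the difference of the log2 folds was −0.0035 (SE 0.26, adjusted p = 1), for Cebpe −0.54 (SE 0.57, adjusted p = 0.992) and for Cebpa 0.53 (SE 0.47, adjusted p = 0.992). The standard errors of the 6 members ran from 0.26 to 0.57 on the log2 scale. A difference must lie well above its standard error to be called, so differences somewhat larger than these could also have been missed. Nlrp3 itself, at 1.11 (SE 0.48, adjusted p = 0.992 in edgeR), was not called.

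Within groups, some members varied together. After the mean of each group was taken off the log2 CPM, Pearson's r over the 16 libraries was 0.807 between Cebpd and Cebpg, 0.736 between Cebpb and Cebpd and 0.605 between Cebpb and Cebpg. Cebpz had values between −0.409 and 0.174 with the other 5. The points share mice, since each gave 2 libraries, and share depth, and these values are given as a description. Nlrp3-/- replicate 1 was the highest of its group for all 3 of Cebpb, Cebpd and Cebpg in both subsets.

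The genes whose log2 CPM was most like that of each member over the 16 libraries were, by Pearson's r among 10696 genes, Nacc2 (0.974) for Cebpa, Fam107b (0.953) for Cebpb, Chp1 (0.993) for Cebpd, Zmpste24 (0.965) for Cebpe and Papola (0.958) for Cebpg. The next were Glb1 and Tmem106a for Cebpa, Sh3glb1 and Rassf3 for Cebpb, Fam122a and Tpd52 for Cebpd, Cyfip2 and Tpcn2 for Cebpe, and Hnrnph2 and App for Cebpg. For Cebpz they were Ppil4 (0.969), Nktr (0.955) and Dnttip2 (0.951), and with the group means taken off they were Wsb2 (0.892), Gm1943 (0.892) and Snord55 (0.879). By Spearman's rho, at most 1 of the first 3 genes was kept for any member. None of the first 3 for Cebpz was among the first 3 once the group means were taken off.

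The genes related to C/EBP activity were taken as lists and are described by counts beside all tested genes, whose median log2 fold was 0.07 in M-MDSCs and 0.03 in G-MDSCs for the genotype comparison. No listed gene was called for the interaction by edgeR or DESeq2. Of the dimer partners, 1 of 10 tested was called in M-MDSCs by edgeR's quasi-likelihood test, against 10.6% of all tested genes. It was the PAR zipper factor Tef (log2 fold 1.12, SE 0.23, adjusted p = 0.0121). In G-MDSCs 0 of 9 were called by edgeR or DESeq2, with 0 at an unadjusted p under 0.05, and edgeR called 16.4% of all tested genes. Atf3, a stress-induced partner, was at 391 ± 109 CPM in WT and 243 ± 31.6 CPM in Nlrp3-/- M-MDSCs (SD, n = 4 each; log2 fold −0.66, SE 0.20, adjusted p = 0.057), and was called lower with DESeq2 (adjusted p = 0.0164) and the edgeR exact test (adjusted p = 0.0329). Atf4 was at 354 ± 9.31 and 366 ± 110 CPM there (log2 fold 0.06, SE 0.20, adjusted p = 0.873).

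Of the regulators of C/EBP genes and proteins, 3 of 11 tested fell in M-MDSCs and 2 of 13 in G-MDSCs, against 7.1% and 11.7% of all tested genes, and none rose. Without WT M-MDSC replicate 2 or 4, 1 fell, Klf4, and with the replicate block and GC offsets 0 fell in M-MDSCs and 1 in G-MDSCs, Fbxw7. With library size only or GC offsets Stat3 rose in G-MDSCs (0.61 and 0.60, adjusted p = 0.0261 and 0.0401). Fbxw7, whose ubiquitin ligase recognizes C/EBP proteins, fell from 74.1 ± 5.81 to 39.1 ± 10.2 CPM in M-MDSCs (SD, n = 4 each; log2 fold −0.89, SE 0.20, adjusted p = 0.0175) and from 119 ± 4.54 to 58.6 ± 7.12 CPM in G-MDSCs (−1.10, SE 0.16, adjusted p = 0.000391). Runx1, a hematopoietic factor upstream of Cebpa, fell in M-MDSCs (−0.69, SE 0.18, adjusted p = 0.0292) and in G-MDSCs (−0.89, SE 0.20, adjusted p = 0.00821). With GC content and length as offsets Runx1 was called in neither, at −0.42 (adjusted p = 0.168) and −0.52 (adjusted p = 0.112). With the replicate block alone it was not called in M-MDSCs (adjusted p = 0.0794). Klf4, a monocyte factor, fell in M-MDSCs (−0.85, SE 0.17, adjusted p = 0.0105). The pseudokinase Trib1, which brings C/EBPα to its degradation, was at 572 ± 95.2 CPM in WT M-MDSCs and 2481 ± 683 CPM in WT G-MDSCs (SD, n = 4 each), and was higher in G-MDSCs of both genotypes (log2 fold 2.12 and 2.42, adjusted p = 1.07e-05 and 2.75e-07).

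The targets of the C/EBP factors were taken in 3 lists. Of 14 tested late granule genes, 12 were higher and 2 lower in G-MDSCs of WT mice, against 26.3% and 27.1% of all tested genes, with a list median log2 fold of 2.92 against −0.05 over all genes. Ltf, the secondary granule protein lactoferrin, was at 74.1 ± 82.4 CPM in WT M-MDSCs and 1778 ± 811 CPM in WT G-MDSCs (SD, n = 4 each, log2 fold 4.57, SE 0.66, adjusted p = 0.000103). It is among the G-MDSC markers that summed to 7484 CPM in WT M-MDSC replicate 2. The 2 lower genes were Lyz2 and Chil3, which monocytes also make. In the genotype comparison 2 of 14 rose in M-MDSCs, against 3.51% of all tested genes, Mmp9 (log2 fold 2.22, SE 0.49, adjusted p = 0.0169) and Cd177 (0.78, SE 0.19, adjusted p = 0.0233), and without WT replicate 2 none did. Mmp9 is also a G-MDSC marker, with WT and Nlrp3-/- means of 4.89 and 20.6 CPM in M-MDSCs and 4247 and 6045 CPM in G-MDSCs. The G-MDSC markers summed to 1142 to 1467 CPM in WT M-MDSC replicates 1, 3 and 4 and 7484 CPM in replicate 2. Nlrp3-/- M-MDSCs held 1774 to 2105 CPM. The part of G-MDSC RNA in the Mmp9 difference was not tested. In G-MDSCs 0 of 14 were called by edgeR or DESeq2, with 0 at an unadjusted p under 0.05.

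Of the 8 early granulocyte targets, 4 were lower and 2 higher in WT G-MDSCs, against 27.1% and 26.3% of all tested genes. Among the lower ones was Mpo, the primary granule enzyme myeloperoxidase, at 45 ± 38.1 CPM in WT M-MDSCs and 1.53 ± 0.771 CPM in WT G-MDSCs (SD, n = 4 each, adjusted p = 3.27e-05). The second mean was close to the 0.727 to 1.17 CPM that 3 counts were worth in the WT G-MDSC libraries. The immature neutrophil markers, Mpo among them, summed to 307 CPM in WT M-MDSC replicate 2 and at most 119 CPM in the other WT M-MDSC libraries. Csf3r, the G-CSF receptor, was at 30.5 ± 10.4 and 1113 ± 404 CPM (log2 fold 5.19, SE 0.37, adjusted p = 3.72e-07). Between genotypes, 1 of 8 tested rose in M-MDSCs, against 3.51% of all tested genes, the GM-CSF receptor gene Csf2ra (0.68, SE 0.19, adjusted p = 0.0396). In G-MDSCs 1 of 3 fell, against 11.7%, the IL-6 receptor gene Il6ra (−0.94, SE 0.19, adjusted p = 0.00341). Elane, Mpo, Prtn3, Ctsg and Ms4a3 did not pass the filter on low counts there and were not tested. Of the inflammatory targets, 0 of 13 tested were called in M-MDSCs by edgeR or DESeq2, with 2 at an unadjusted p under 0.05, and 3 of 11 rose in G-MDSCs, against 4.7% of all tested genes. Leaving out 1 library gave 0 to 4 lower in M-MDSCs, the most without Nlrp3-/- replicate 1, and 0 to 3 higher in G-MDSCs, with 0 without WT replicate 2 or Nlrp3-/- replicate 4. The 3 were Clec4e (0.68, SE 0.18, adjusted p = 0.0189), Il1b (0.70, SE 0.22, adjusted p = 0.0378) and Ccl3 (0.86, SE 0.28, adjusted p = 0.0488).

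Since the Cebpz protein belongs to a family of ribosome assembly factors, 61 genes of that process were described beside it. In Nlrp3-/- M-MDSCs 12 of 61 fell and 1 rose, against 7.1% and 3.51% of all tested genes, with a list median log2 fold of −0.36. In Nlrp3-/- G-MDSCs 14 of 60 fell and 0 rose, against 11.7% and 4.7%, with a median of −0.47. Leaving out 1 library gave 4 to 15 lower in M-MDSCs, the fewest without Nlrp3-/- replicate 4, and 9 to 14 in G-MDSCs. The smallest p in either was that of Ddx10, an RNA helicase of the small subunit pathway (−1.34, SE 0.22, adjusted p = 0.00482 in M-MDSCs and −1.78, SE 0.28, adjusted p = 0.00078 in G-MDSCs). Utp18 fell in both subsets (log2 fold −1.24 and −1.35, adjusted p = 0.0067 and 0.00598), as did Nop14 (−1.03 and −1.78, adjusted p = 0.0143 and 0.00242).

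Npm1, nucleophosmin, fell from 251 ± 6.37 to 146 ± 13.3 CPM in M-MDSCs (SD, n = 4 each; log2 fold −0.76, SE 0.13, adjusted p = 0.00649), and fell in G-MDSCs too (−0.81, adjusted p = 0.00842). Nolc1 fell in M-MDSCs (−0.77, SE 0.16, adjusted p = 0.0141) and the helicase gene Ddx21 in both subsets (−0.80, adjusted p = 0.0266, and −1.10, adjusted p = 0.00358). Of the other genes of the Noc family, chosen after their values were seen, Noc3l fell in both subsets (−1.66, adjusted p = 0.0303, and −2.54, adjusted p = 0.0276), Noc4l rose in M-MDSCs (0.85, adjusted p = 0.0303), and Noc2l was at −0.06 and −0.52. The means of Noc3l were low, at 9.13 and 2.71 CPM in WT and Nlrp3-/- M-MDSCs and 4.74 and 0.848 CPM in G-MDSCs. The last lies within the 0.349 to 1.17 CPM that 3 counts were worth. With GC content and length as offsets, 8 of 61 genes fell in M-MDSCs and 7 of 60 in G-MDSCs, against 3.73% and 5.99% of all tested genes. With the replicate block as well 0 and 2 did, against 0.31% and 3.01%. Between subsets 42 of 61 genes were lower and 1 was higher in WT G-MDSCs, against 27.1% and 26.3% of all tested genes.

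**Figure D5:**
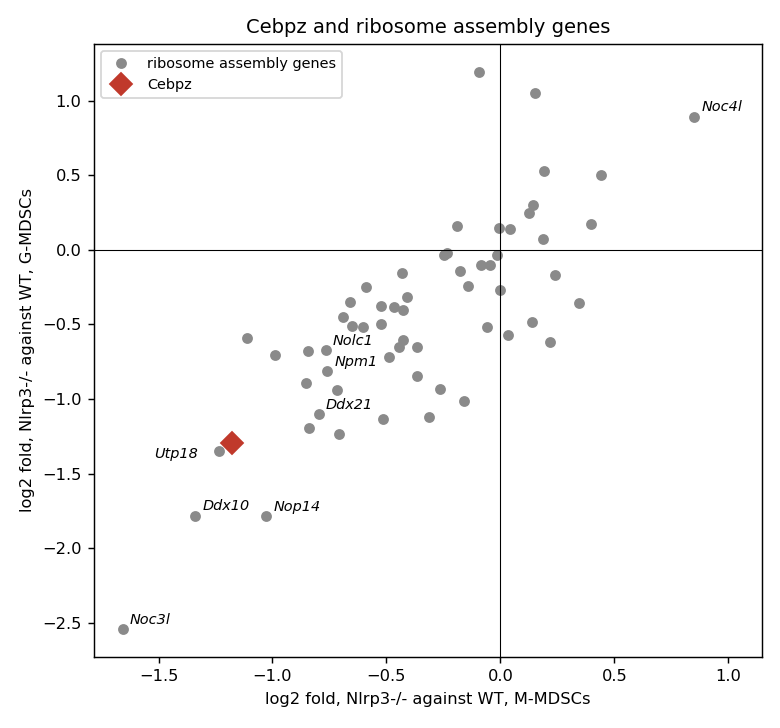
Log2 fold of Nlrp3-/- against WT in G-MDSCs (vertical axis) against that in M-MDSCs (horizontal axis) for the ribosome assembly genes tested in both subsets, as grey points, and for Cebpz as a red diamond at −1.18 and −1.29. Of the genes tested, 47 of 61 lie below 0 in M-MDSCs and 48 of 60 in G-MDSCs, with Noc3l, Ddx10 and Utp18 at or beyond the values of Cebpz and Noc4l on the opposite side. The median log2 fold of all tested genes was 0.07 in M-MDSCs and 0.03 in G-MDSCs. Noc3l had few counts, with a mean of 0.848 CPM in Nlrp3-/- G-MDSCs.

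NF-Y is another factor that binds CCAAT, as a complex of 3 subunits. Nfyb fell in both subsets, from 46.3 ± 8.78 to 26.2 ± 3.54 CPM in M-MDSCs (SD, n = 4 each; log2 fold −0.79, SE 0.19, adjusted p = 0.0236) and from 88.5 ± 32.8 to 50.4 ± 8.14 CPM in G-MDSCs (−0.89, SE 0.23, adjusted p = 0.016). This was 1 of 3 tested subunits in each subset, against 7.1% and 11.7% of all tested genes that fell. Nfya and Nfyc were not called in either, and the list median log2 fold was −0.63 in M-MDSCs and −0.12 in G-MDSCs.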

How the data were processed

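The 16 libraries were made with the QuantSeq 3′ mRNA kit from M-MDSCs and G-MDSCs of 4 WT and 4 Nlrp3-/- mice, grouped by their labels. HISAT2 2.1.0 was used by the authors for alignment to mm10 and HTSeq for counting by strand, and the deposited values are raw counts per gene symbol. The tests were run in edgeR 4.0.16 (R 4.3.3): filterByExpr, TMM and the quasi-likelihood test within the 2 groups compared, a model of all 16 libraries for the interaction, and Benjamini-Hochberg adjustment over all tested genes. All 6 members passed the filter. The SE is the log2 fold divided by the square root of F. Locations and GC content came from GENCODE, where 394 symbols had no match. Alternatives were DESeq2 1.42.0, other scalings, filters and models, offsets from splines of GC content and length (4 degrees of freedom each), and each library left out.

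Same-numbered M-MDSC and G-MDSC libraries of a genotype are of the same mouse by the labels (r of their deviations 0.0971 to 0.397 in WT and 0.00821 to 0.382 in Nlrp3-/- mice). By these deviations M-MDSC replicates 1, 3 and 4 were most like the G-MDSC library of the same number. Replicate 2 was most like G-MDSC replicate 4 in WT mice and replicate 3 in Nlrp3-/- mice. Named genes were the members, Ddit3, their neighbours, up to 4 called genes with the smallest p per list and genotype comparison, and the 3 genes most like each member. Genes named between subsets, and Atf3, Atf4, Trib1 and Stat3, were chosen after their values were seen. Members and lists were chosen with earlier results of these data known. The sort day and the libraries given 15 or 17 amplification cycles are not given in the sources used here.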

Additional observations from a re-analysis of the deposited data

Results flagged for a closer look

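The Cebpz level of Nlrp3-/- G-MDSC replicate 4, 198 CPM, stood far above the other 3 libraries of its group, at 118 to 128 CPM, by Dixon's test (ratio 0.874). The 6 members gave 24 groups of 4 libraries, of which this was 1 flagged, and chance flags about 1 in 20 groups. Without that library the log2 fold of Cebpz in G-MDSCs was −1.49 (edgeR, adjusted p = 0.000714).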

How the results depend on the processing

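Cebpz kept its direction between genotypes under all 19 alternatives of each subset, from −1.27 to −0.90 in M-MDSCs and from −1.49 to −0.92 in G-MDSCs, and lost its call once, in M-MDSCs with the replicate block and GC offsets (adjusted p = 0.0582). WT and Nlrp3-/- libraries share only a replicate number (r of their deviations −0.452 to 0.0177 in M-MDSCs and −0.263 to −0.0438 in G-MDSCs). The replicate block called 425 genes in M-MDSCs and 985 in G-MDSCs, GC content and length as offsets 655 and 964, and both together 48 and 401, against 1060 and 1522. Leaving out 1 library gave 450 to 1783 genes in M-MDSCs, the most without Nlrp3-/- replicate 1 and the fewest without Nlrp3-/- replicate 4. With library size only the calls split into 684 higher and 569 lower in M-MDSCs, 793 and 854 in G-MDSCs, 1166 and 5061 between the subsets of WT mice and 1146 and 5034 between those of Nlrp3-/- mice, against 351 and 709, 436 and 1086, 2557 and 2636, and 2383 and 2758. For the interaction DESeq2 called 8 genes, no filter 5 and leaving out 1 library 2 to 5, against 3.

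Of the members, 1 was called in M-MDSCs, 2 with GC offsets, 0 with the block and GC offsets, and 1 to 2 without 1 library. In G-MDSCs 1 was called, and 2 with DESeq2, the exact test, at least 10 counts in every library or the model of all 16 libraries, 3 with GC offsets, 5 with no filter and 1 to 3 without 1 library. Directions turned for Cebpd in M-MDSCs without Nlrp3-/- replicate 1 (−0.0668; 0.301 without Nlrp3-/- replicate 2), and with library size only between subsets for Cebpg (−0.39 in WT and −0.45 in Nlrp3-/- mice) and Cebpz (−0.19 and −0.30). In the interaction they turned for Cebpg with DESeq2 size factors (−0.0229), library size only (−0.0575), DESeq2 (−0.0197) and without 1 library (−0.17 to 0.28), for Cebpz with no filter (0.00901) and without 1 library (−0.21 to 0.13), and for Cebpe without 1 library (−0.85 to 0.0106). Between the subsets the block by mouse changed no call. The cause of these changes was not tested. Several tested genes at the members' loci had low counts, with as few as 11 in a library for Cebpe and 3 for Cebpzos. The neighbouring genes Pepd and Slc7a8 each had as few as 2.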
